A study of Mus musculus with 460 samples.

Results

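The genes of elastic fibres and of the microfibrils that scaffold them were followed through 460 single cells of a mouse lung tumour stroma. The set is a list of gene symbols, drawn up with earlier results of these data known, and holds 10 of the 48440 genes in the table: Eln, Fbln5, Emilin1, Mfap4, Fbn1, Fbn2, Mfap2, Mfap5, Fbln1 and Fbln2. All 10 were found, and together they took 0.333% of all counts. The cells are labelled tCAFs, with CAFs as the cell type (cancer-associated fibroblasts), and came from mice with lung adenocarcinoma, so every cell in the table comes from tumour-bearing animals. There is 1 group, with no untreated or tumour-free sample, and the age of the mice, their number and how the cells were sorted are not given in the sources used here.

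Elastic fibres give the lung its recoil. Tropoelastin, the product of Eln, is laid down on a scaffold of microfibrils built from fibrillins, helped by bridging proteins such as fibulin-5 and EMILIN-1, and is then cross-linked by lysyl oxidases into a polymer that turns over very slowly. Microfibrils also exist without elastin, where they bind latent TGF-beta binding proteins and so hold growth factors in the matrix. In the lung, fibroblasts of the alveolar septa, airways and vessels are known to make these proteins.

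Each cell is a separate library of molecular barcode counts, with a total of 25029 to 240496 counts (median 88701) and a median of 7705.5 genes. All 460 cells counted Col1a1, Col3a1 and Pdgfrb, markers of fibroblasts and related mesenchymal cells. Epcam, Ptprc and Pecam1, which mark epithelium, leukocytes and endothelium, were counted in 5.43%, 11.3% and 16.3% of them. No animal is named, so the cells were treated as 1 sample: nothing below is a test, no p-value was computed, and each interval is a 95% interval for counting error only. Levels over a set of cells are CPM, the summed counts of a gene scaled to 1000000 summed counts of all genes. Cells in which the Rgs5 count was above the Pdgfra count were set against the rest. Rgs5 encodes a regulator of G protein signalling that marks pericytes, the contractile cells around small vessels, and Pdgfra encodes a growth factor receptor that marks fibroblasts. The split put 44.1% of the 460 cells in the first class (Rgs5 above) and the remaining cells in the second (the others), with no tie. It cuts a range rather than naming 2 cell types: 68 cells had less than 2-fold between the counts, 31 of them with Rgs5 above.

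Over the table, the transcripts of fibrillin-1, of the glycoprotein gene Mfap5 and of tropoelastin led the 10, whichever length was used to scale them. The levels in CPM spanned from 1700 for Fbn1 to 29.9 for Fbln2. Between them stood Eln (697), Mfap5 (406.1), Fbln1 (193.5), Fbln5 (84.04), Mfap4 (70.2), Emilin1 (67.05), Fbn2 (55.3) and Mfap2 (30.7). The genes differ in length, so their order is also given per kilobase (kb) of exon. Whether these barcode counts grow with gene length is not given in the sources used here. In CPM per kb of the union of exons, Fbn1 led with 140.2, followed by Mfap5 (113.2), Eln (86.1), Fbln1 (44.3), Mfap4 (36.5), Mfap2 (25.4), Emilin1 (13.6), Fbln5 (12.2), Fbln2 (4.70) and Fbn2 (4.18). The counting intervals of neighbours in that order did not overlap, the closest being those of Fbln2 and Fbn2 (4.44 to 4.96 and 4.01 to 4.35), but a spread over samples cannot be given. With the length of the longest coding transcript instead, an alternative chosen after seeing the data, Mfap5 (269.7) and Eln (181.01) stood above Fbn1 (142.01). The order of the first 3 therefore rests on the length used. The order of the other 7 was the same with either length, but not the same as in unscaled CPM.

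**Figure D1:**
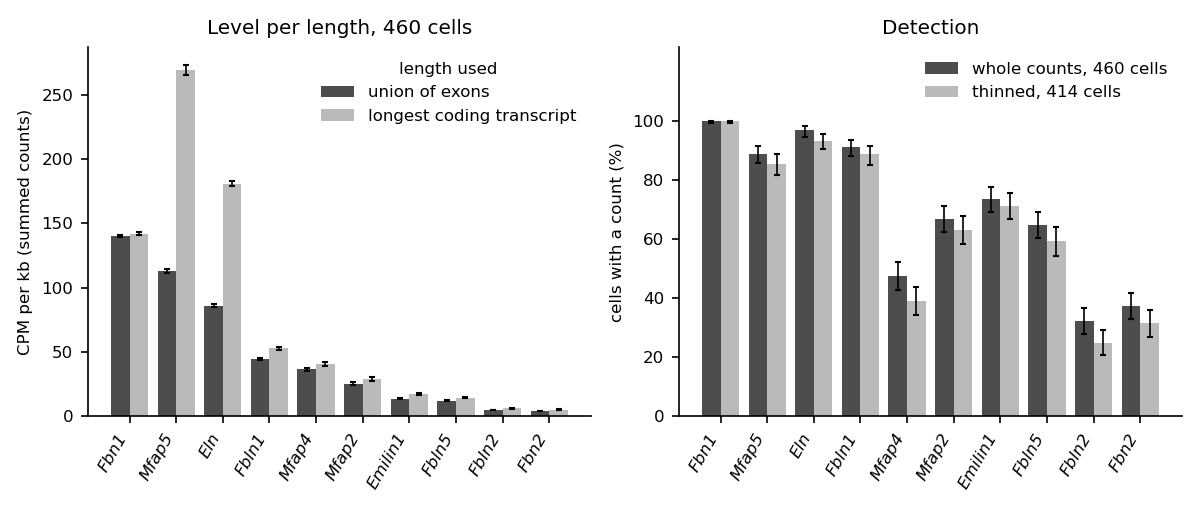
Level and detection of the 10 genes. Left, CPM of summed counts per kb in 460 cells with 2 choices of gene length; right, the percent of cells with a count, whole and after thinning each cell to the same total; error bars are 95% counting intervals. Fbn1, Mfap5 and Eln lead with either length, and Fbln2 and Fbn2 are lowest in level per kb and in detection.

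Tropoelastin itself was counted in nearly every cell, at levels that ranged widely. Eln (chr5:134702593-134747323, minus strand, build GRCm38, which is mm10) reached 697 CPM (689.5 to 705) and had a count in 96.7% of cells (94.7 to 98.2). Single cells ran from 0 over a median of 155.9 to 8081 CPM. The 10% of cells with the most held 51.8% of the Eln counts after thinning. The median over all 13975 genes detected in at least 10% of cells was 49.1%. Eln was above 98.8% of those genes in summed counts, and genes of like level were not compared.

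The 3 genes for proteins that join elastin to microfibrils were counted in fewer cells. Fbln5 (chr12:101746565-101819055, minus strand), whose product tethers tropoelastin to cells and to the cross-linking enzyme LOXL1, was at 84.04 CPM (81.3 to 86.8), in 64.8% of cells. Emilin1 (chr5:30913402-30921277, plus strand), encoding a glycoprotein of the elastin and microfibril interface, was at 67.05 CPM (64.6 to 69.6), in 73.5% of cells. Emilin1 was spread evenly, with 34.04% of its thinned counts in the top 10% of cells and a highest cell of 425.6 CPM. Mfap4 (chr11:61485431-61488900, plus strand), encoding a fibrinogen-domain protein that binds tropoelastin and fibrillin, was the opposite: at 70.2 CPM (67.7 to 72.8) it was counted in 47.4% of cells, its median cell was at 0, its highest at 2785 CPM, and 86.2% of its thinned counts lay in the top 10% of cells. Emilin1 was thus low in many cells and Mfap4 high in few.

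The fibrillins stood at opposite ends. Fbn1 (chr2:125300594-125507993, minus strand), the main fibrillin of adult tissue, was at 1700 CPM (1688 to 1712) and had a count in all 460 cells, from 47.7 over a median of 1556 to 5474 CPM. It was the most even of the 10, with 19.5% of thinned counts in the top 10% of cells. Fbn2 (chromosome 18, minus strand), the fibrillin known best from development, was at 55.3 CPM (53.1 to 57.5) in 37.2% of cells, with a median cell at 0 and a highest cell of 1146 CPM. Summed over cells there were 30.8 Fbn1 counts for each Fbn2 count, between genes of like exon length (12128 and 13215 bases), and Fbn1 was above Fbn2 in 99.8% of cells, all but 1, which was a tie. Of the exon bases of Fbn1, 20.1% are overlapped on the opposite strand by Gm9913, which had 8 counts in the whole table. Whether the authors counted by strand is not given in the sources used here, and the overlaps of Eln, Mfap4 and Fbn2 with antisense genes cover at most 4.63% of their exons.

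The small microfibril-associated glycoproteins also differed from each other. Mfap5 (chr6:122505845-122529290, plus strand) was at 406.1 CPM (400.1 to 412.2) in 88.9% of cells, with a median cell of 74.7 and a highest of 3166 CPM. Mfap2 (chr4:141010418-141015984, plus strand) was at 30.7 CPM (29.1 to 32.4) in 66.7% of cells and nowhere high, its highest cell reaching 223.4 CPM. Mfap5 counts were above Mfap2 counts in 73.9% of cells and below them in 17.8%, with 13.2 Mfap5 counts for each Mfap2 count over the table. Per kb of exon the levels were 113.2 and 25.4 CPM.

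The other fibulins, which occur in elastic fibres and in basement membranes, showed the same kind of imbalance. Fbln1 (chr15:85205949-85286535, plus strand) was at 193.5 CPM (189.3 to 197.7) in 91.1% of cells, with a median of 119.3 and a highest cell of 2543 CPM. Fbln2 (chr6:91212455-91272540, plus strand) was at 29.9 CPM (28.3 to 31.6) in 32.2% of cells, with 82.01% of its thinned counts in the top 10% of cells. The Fbln1 count was above the Fbln2 count in 80.9% of cells, and per kb of exon the levels were 44.3 and 4.70 CPM.

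Upstream sequence is shown for Fbln5 and Fbln1, the fibulin genes whose levels ran in opposite directions over the cells (below). For the members, 250-base windows ahead of a RefSeq start (RefSeq, GRCm38.p6) were taken on every chromosome but 18, which holds Fbn2 and was left out. Of the 10 members, 6 had such a window, 9 windows in all. Only Fbln5 and Fbln1 had a window that holds no annotated exon base. Each is printed 5′ to 3′ on the strand of its gene, and capitals mark motif matches.
Fbln5 (chr12:101819120-101819369, minus strand): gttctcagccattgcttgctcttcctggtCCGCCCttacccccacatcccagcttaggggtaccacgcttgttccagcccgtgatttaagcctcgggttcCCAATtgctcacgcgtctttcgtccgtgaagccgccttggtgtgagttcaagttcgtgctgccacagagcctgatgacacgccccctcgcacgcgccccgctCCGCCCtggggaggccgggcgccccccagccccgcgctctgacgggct
Fbln1 (chr15:85205699-85205948, plus strand): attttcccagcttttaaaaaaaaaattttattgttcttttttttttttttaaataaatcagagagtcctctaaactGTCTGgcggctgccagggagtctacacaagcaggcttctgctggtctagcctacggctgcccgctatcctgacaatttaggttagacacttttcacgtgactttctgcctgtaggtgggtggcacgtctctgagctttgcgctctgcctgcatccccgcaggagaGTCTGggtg
The Fbln5 window is 65.2% G and C and holds 2 matches to the GC box GGGCGG and 1 to CCAAT. The Fbln1 window is 46.4% G and C and holds 2 matches to the SMAD motif CAGAC. Both strands were searched, so a motif can appear as its reverse complement. Among 32851 windows of the same length the GC box occurred in 32.7%, CCAAT in 33.8% and CAGAC in 42.2%, and their median G and C content was 52.4%. Matches to TATAAA (12.4% of windows), the AP-1 site TGANTCA (6.75%) and the TEAD site GGAATG (12.6%) were also searched. A match describes these letters only.

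Of the 10 genes, 3 (Fbn1, Eln and Fbln1) were detected in 90% of cells or more, as were 16.9% of all genes detected in at least 10%. After thinning each cell to 56586 counts, Fbn1 (100%) and Eln (93.2%) were still above that limit and Fbln1 (88.6%) was not. The share of all genes above it was not computed after thinning. The median cell counted 7 of the 10 genes, the sparsest 2, and 12 cells counted all of them. The table holds no cells of a type known to lack these genes, so a background share from free RNA could not be given.

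Elastic fibre genes were mostly lower in the cells with Rgs5 above Pdgfra. Of the 10 genes, 6 were at least 2-fold lower there (Eln, Fbln5, Emilin1, Mfap4, Fbn2 and Mfap5) and 0 were at least 2-fold higher. Over all 13975 genes detected in at least 10% of cells, 5.26% were at least 2-fold lower and 3.98% at least 2-fold higher. The median log2 ratio (Rgs5 above over other) was -1.55 over the 10 genes and 0.02 over all genes. For each of the 10 the cells of the classes overlapped widely. Both classes come from the same sample, so the ratios describe these cells and have no replicate check.

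All 4 genes of the elastin core and its assembly were lower. Eln in single cells ran from 0 over a median of 86.1 to 4617 CPM with Rgs5 above and from 0 over 355.1 to 8081 CPM in the others. Its summed level was 328.1 against 942 CPM, 2.87-fold lower with Rgs5 above (2.79 to 2.95). The share of cells with a count did not follow, at 97.5% and 96.1%: tropoelastin was counted about as often in either class, but 19 against 83 cells lay at or above 1000 CPM. Fbln5 ran from 0 over 8.99 to 1074 CPM and from 0 over 31.2 to 1942 CPM, with summed levels of 38.3 against 114.3 CPM (2.99-fold, 2.74 to 3.26). Among the cells with at least 2-fold between Rgs5 and Pdgfra its log2 ratio was -2.24, in place of -1.58.

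Among the 10, Emilin1 had the widest gap in detection. It had a count in 51.2% of cells with Rgs5 above and 91.1% of the others, and in 47.4% and 88.1% after thinning. Its cells ran from 0 over 8.02 to 314.3 CPM and from 0 over 79.8 to 425.6 CPM, and 90.7% of the other cells exceeded the median of the first class. The summed levels were 27.95 against 92.9 CPM (3.32-fold, 3.01 to 3.67), while the medians of single cells gave a log2 ratio of -3.31. Mfap4 was at 24.8 against 100.2 CPM (4.04-fold, 3.64 to 4.49), but 1 cell held 43.2% of the Mfap4 counts with Rgs5 above, and without that cell, an alternative chosen after seeing the data, the levels were 14.1 against 100.2 CPM (7.08-fold). Its cells ran from 0 over a median of 0 to 2785 CPM and from 0 over 8.73 to 2762 CPM, with 1 against 9 cells at or above 1000 CPM. Leaving out the 5% of cells with the most Mfap4 in each class, also chosen after seeing the data, gave 6.94 against 38.6 CPM (5.56-fold).

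The fibrillins were lower to unlike degrees. Fbn1 cells ran from 47.7 over 1189 to 3599 CPM with Rgs5 above and from 361.7 over 1914 to 5474 CPM in the others, with summed levels of 1251 against 1997 CPM (1.597-fold, 1.57 to 1.62). Fbn1 stayed inside the 2-fold limit under all 13 alternatives. Fbn2 had medians of 0 in both classes and highest cells of 422.2 and 1146 CPM, with summed levels of 22.8 against 76.8 CPM (3.37-fold, 3.02 to 3.77) and counts in 27.6% and 44.7% of cells.

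Of the microfibril-associated glycoproteins, Mfap5 was lower by more than Mfap2. Mfap5 ran from 0 over 34.4 to 2638 CPM with Rgs5 above and from 0 over 327.9 to 3166 CPM in the others, and its summed level was 150.9 against 575 CPM (3.81-fold, 3.65 to 3.98). The medians of single cells gave a log2 ratio of -3.25 in place of -1.93, and leaving out the 5% of cells with the most Mfap5 in each class, an alternative chosen after seeing the data, gave 77.8 against 489 CPM (6.29-fold). Mfap2 was at 21.7 against 36.7 CPM (1.69-fold, 1.497 to 1.91), with medians of 9.84 and 28.1 CPM, whose log2 ratio of -1.51 was past 2-fold. Mfap5 was above Mfap2 in 63.1% of cells with Rgs5 above and 82.5% of the others, with 6.95 and 15.7 Mfap5 counts for each Mfap2 count.

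Fbln1 and Fbln2 did not share the pattern. Fbln1 ran from 0 over 162.7 to 989 CPM with Rgs5 above and from 0 over 108.3 to 2543 CPM in the others, and its summed level was 211.2 against 181.8 CPM, a ratio of 1.16 (1.11 to 1.21). It was above 1 under all 13 alternatives and never reached 2-fold. Fbln2 had medians of 0 and highest cells of 439.2 and 712 CPM, with summed levels of 30.4 and 29.6 CPM (ratio 1.03, 0.915 to 1.15). Its counting interval spans 1, and its log2 ratio was below 0 under 6 of 12 alternatives. Fbln1 was above Fbln2 in 80.8% and 80.9% of cells.

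**Figure D2:**
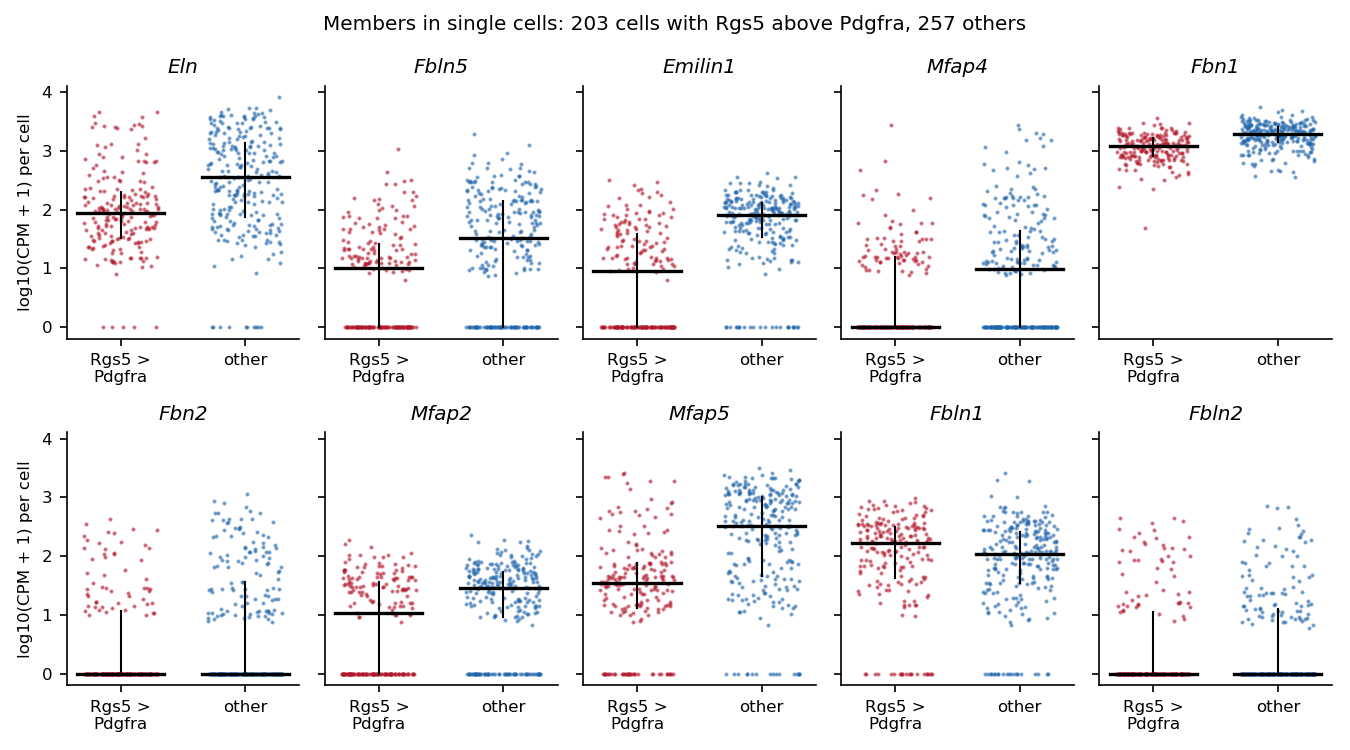
Level of each gene in each cell, as log10 of CPM + 1, in cells with Rgs5 above Pdgfra (44.1% of 460) and the others. Each point is a cell, thick bars are medians and thin lines the quartiles; the classes overlap in every panel, and the medians of Eln (86.1 and 355.1 CPM), Mfap5 (34.4 and 327.9) and Emilin1 (8.02 and 79.8) lie apart while Fbln1 (162.7 and 108.3) is reversed.

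Other measures moved with the same split. The median total was 76944 counts with Rgs5 above and 96654 in the others. All 8 pericyte markers fixed for the comparison were at least 2-fold higher with Rgs5 above, Rgs5 itself included (summed over the list 9753 against 1432 CPM, with single cells from 349.7 to 25429 and from 156.4 to 8852), and 3 of 8 fibroblast markers, Pdgfra itself included, were at least 2-fold lower. The median cell with Rgs5 above still had 260 CPM of Pdgfra, and the median other cell 261.6 CPM of Rgs5. Of the smooth muscle markers, 0 of 6 passed 2-fold, but the list was lower with Rgs5 above in sum (905 against 1339 CPM) and in the median cell (229.4 against 677 CPM). Endothelial markers (1 of 5 higher and 1 lower) summed to 81.8 against 76.1 CPM and mesothelial markers (1 of 5 detected in at least 10% of cells) to 101.7 against 42.8 CPM, both with medians of at most 12.2 CPM. Of the counts of mesothelial markers with Rgs5 above, a single cell held 93.6% for Upk3b, 95.9% for Lrrn4 and 74.1% for Msln. Immune markers (5 of 5 higher, 405.6 against 152.8 CPM in sum, cells from 0 to 8601 and from 0 to 5529) and epithelial markers (3 of 7 higher, 1364 against 844 CPM, cells from 0 to 20741 and from 0 to 23548) were also higher in sum, with closer medians of 75.5 and 70.1 CPM and of 709 and 607 CPM. Their defining markers Ptprc and Epcam had medians of 0 in both classes. In the 330 cells with no count of Epcam, Ptprc or Pecam1, 6 members were at least 2-fold lower. The share of all genes in those cells was not computed. After thinning 6 members were at least 2-fold lower, as were 6.44% of all genes detected in at least 10% of cells.

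The columns of the table also fall into stretches with and without Sftpc, the surfactant protein gene of alveolar epithelium, a feature the labels do not explain. The stretches low in Sftpc held 27.6% of the cells; 50.4% of these had Rgs5 above, against 41.7% of the rest. Within the low stretches, where the share of all genes was not computed, 4 of the 10 genes were at least 2-fold lower with Rgs5 above. The log2 ratios of Mfap4 and Fbln5 there were both -0.97. Of the counts of the cells with Rgs5 above there, 1 cell held 74.6% for Mfap4 and a different cell held 54.97% for Fbln5. Without the cell in question the log2 ratio was -2.93 for Mfap4 and -2.09 for Fbln5, against -2.78 and -1.72 in the other stretches. Over both classes, the low stretches had 455.3 against 774 CPM of Eln, 59.98 against 91.6 of Fbln5, 308.2 against 436.99 of Mfap5, 19.2 against 33.3 of Fbln2 and 37.1 against 28.7 of Mfap2. The part of depth, other cells' RNA and these stretches in the differences between the classes was not tested.

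Ordering the cells by Rgs5 counts as a share of Rgs5 and Pdgfra counts, in 5 sets of 92 cells, showed where along that range each gene dropped; this ordering was chosen after seeing the data. The share ran from 0.338 to 11.3% in the first set and from 94.5 to 99.8% in the last. Mfap5 was high in the first 3 sets (538, 652 and 556 CPM) and at 146.9 and 34.7 CPM in the last 2. Fbln5 (123.98, 116.1, 107.8, 33.5 and 18.9 CPM) and Emilin1 (103.5, 83.4, 88.7, 34.7 and 8.34 CPM) also stepped down between sets 3 and 4. Eln was highest in the second set and lowest in the fifth, with 922, 1103, 743, 421.9 and 142.6 CPM.

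Fbn1 declined more gently, with 2141, 1944, 1856, 1283 and 1085 CPM. Mfap2 was highest in the second set and then lower in each, with 33.8, 43.3, 30.2, 23.4 and 19.6 CPM. Fbn2 was highest in the first set and lower in each later one, with 104.7, 73.4, 39.5, 35.1 and 7.36 CPM, and Mfap4 peaked in the second (83.4, 143.9, 62.1, 37.4 and 6.39 CPM). In the fourth set 1 cell held 59.7% of the Mfap4 counts, and without it the level was 15.2 CPM. Fbln1 ran the other way, with 147.1 CPM in the first set and 181.8, 220.2, 217.2 and 212.3 CPM after it. The summed level of Fbln2 peaked in the middle, with 18.6, 24.7, 53.9, 42.1 and 9.59 CPM. Its median was 0 in every set and the share of cells with a count (40.2, 29.3, 42.4, 30.4 and 18.5%) had no such peak, and 5 cells held 55.8% of the counts of the third set.

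**Figure D3:**
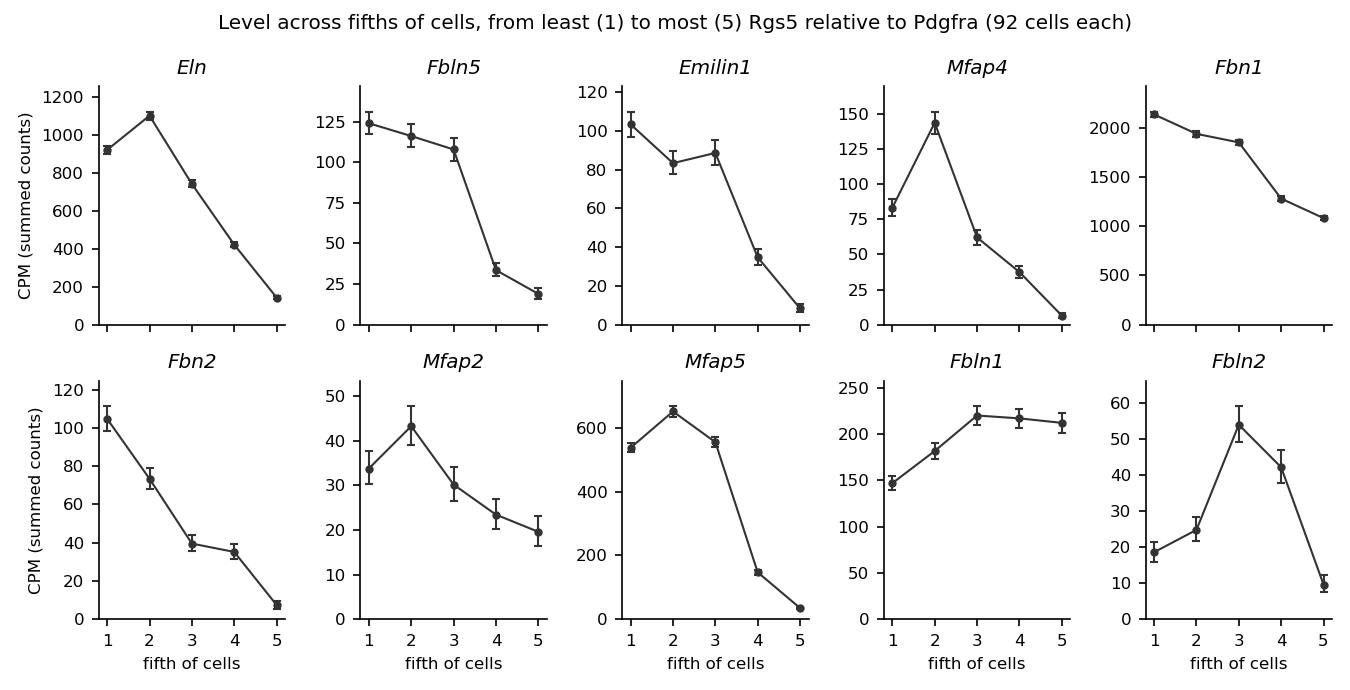
CPM of summed counts in 5 sets of 92 cells, ordered from the least to the most Rgs5 relative to Pdgfra; error bars are 95% counting intervals, and each panel has its own axis from 0. Mfap5, Fbln5 and Emilin1 step down between sets 3 and 4 (Mfap5 from 556 to 146.9 CPM), while Fbln1 is lowest in the first set (147.1 CPM) and Fbln2 highest in the third (53.9 CPM).

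The 10 genes co-varied from cell to cell only in part. Spearman correlations used each cell's counts scaled to a total of 10000 and log1p transformed, and they describe cells of 1 sample that share depth and free RNA. The 45 pairs had a median of 0.129 and ran from -0.207 to 0.645; 34 lay above 0 and 7 at or above 0.3. Over all pairs of the 13975 genes the median was 0.0151, and 0.0749% lay at or above 0.3. A pool of 2 classes gives correlation between genes that differ between them, so each pair was also computed within the classes. The median there was 0.0926 with Rgs5 above and 0.0694 in the others, with 1 and 5 pairs at or above 0.3. Values over all gene pairs were not computed within the classes, and pairs of genes of like level were not compared.

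Tropoelastin and Mfap5 were the closest pair, at 0.645 over all cells, 0.442 with Rgs5 above and 0.670 in the others. They also shared their highest cells: of the 46 cells in the top 10% of each, 20 (43.5%) were the same. Fbn1 with Mfap5 (0.491) and with Eln (0.443) came next. Those pairs kept 0.463 and 0.440 in the other cells and had 0.173 and 0.191 with Rgs5 above. Mfap4 with Mfap5 (0.362; 0.381 in the other cells) and with Eln (0.347; 0.362) completed a group of 4 genes, Eln, Mfap5, Fbn1 and Mfap4, whose pairs in the other cells were at 0.154 to 0.670.

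Emilin1 behaved differently. Its correlations with Mfap5 (0.401) and Fbn1 (0.389) over all cells were 0.112 and 0.133 in the other cells and 0.295 and 0.294 with Rgs5 above. Emilin1 and Eln were at 0.298 over all cells and 0.0238 in the other cells. Fbln5 was not close to its partner Eln (0.160 over all cells, 0.0862 and 0.0546 within the classes). Fbn2 was opposed to the elastin group in the other cells, at -0.329 with Mfap5, -0.268 with Eln and -0.247 with Mfap4, where the class with Rgs5 above gave 0.0519, -0.0225 and -0.0278. Fbln1 and Fbln5 were the lowest pair over all cells at -0.207, with -0.187 and -0.200 within the classes.

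**Figure D4:**
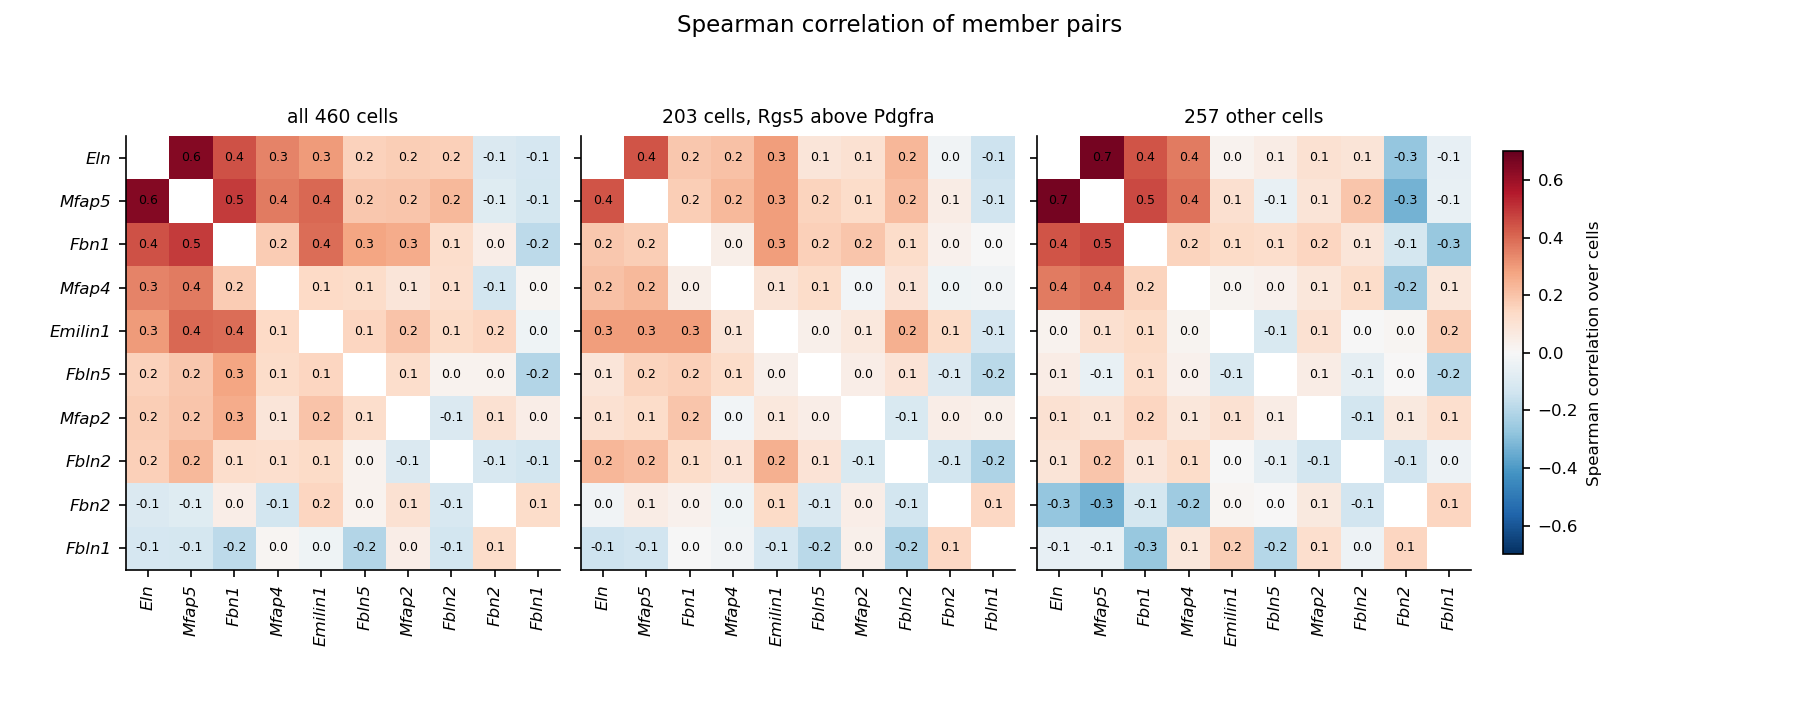
Spearman correlations of the 45 pairs of genes over all 460 cells, the cells with Rgs5 above Pdgfra and the others; red is positive, blue negative. The block of Eln, Mfap5, Fbn1 and Mfap4 is paler with Rgs5 above (Eln with Mfap5 0.442) than in the other cells (0.670). In the other cells Fbn2 is negative with Eln (-0.268) and Mfap5 (-0.329).

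Partner genes listed for each protein were compared in the same way. Eln followed the lysyl oxidase genes Loxl1 (0.607; 0.480 and 0.562 within the classes) and Lox (0.586; 0.360 and 0.622), which encode its cross-linking enzymes, and the proteoglycan gene Bgn (0.600; 0.521 and 0.533). Mfap5 with Bgn was at 0.665 (0.473 and 0.588). Fbn1 was at 0.514 with Ltbp2 (0.347 and 0.515) and 0.508 with Ltbp1 (0.190 and 0.516), genes for proteins that dock on microfibrils. Fbln5 was at 0.241 with Loxl1, but 0.212 and 0.0284 within the classes, and at 0.219 with Ltbp2 (0.125 and 0.136). With Ltbp4 it was at -0.124 over all cells and 0.0688 and -0.0536 within the classes, so the direction was not the same.

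Among 6414 genes detected in at least 50% of cells, those ranking the 460 cells most like each gene were searched, leaving out ribosomal protein, mitochondrial and unnamed genes. Eln was followed most closely by Mfap5, Loxl1 and the collagen gene Col1a2 (0.604), and Mfap5 by Fmo2 (0.682), Loxl1 (0.668) and Bgn. Fbn1 was closest to the collagen genes Col1a2 (0.654), Col5a2 (0.626) and Col5a1 (0.613), and Col5a2 was still at 0.463 and 0.638 within the classes. Emilin1 was closest to Cdh11 (0.552), Igfbp4 (0.541) and Cxcl14 (0.514), and these had 0.155, 0.199 and 0.174 in the other cells.

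The rarer genes had weaker neighbours. Fbln5 was closest to Igf1 (0.381), Adgrf5 (0.367) and Igfbp7 (0.331), and Mfap4 to Scn7a (0.397), Cp (0.387) and Loxl1 (0.383), of which Scn7a was at 0.470 in the other cells. Fbn2 was nearest to Tshz1 (0.318; 0.407 in the other cells), Caprin1 (0.284) and Cd34 (0.263). Mfap2 was nearest to Nrep (0.322), Fstl1 (0.294) and Adh1 (0.268), Fbln1 to Lrp4 (0.343), Tacc1 (0.289) and Aff2 (0.289), and Fbln2 to Loxl1 (0.347), Mgp (0.338) and Ace (0.323). In sparse counts, correlations of this size describe these cells and nothing further.

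The cells highest in each gene differed in kind. Of the 46 cells highest in Fbn1, 3 had Rgs5 above, of those highest in Mfap5 8 and in Eln 11, whereas 24 of the Fbln1 and 23 of the Fbln2 cells did; the class makes up 44.1% of all cells. The median Dcn level, a fibroblast proteoglycan gene, was 2369 CPM in the top Mfap5 cells and 2326 in the top Eln cells, against 96.7 in the top Fbn2 cells. Mfap5 shared 16 of its 46 top cells with Fbn1 and 15 with Mfap4, Eln shared 14 with Mfap4 and 13 with Fbn1, and Eln and Fbn2 shared 2.

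Within the other cells, the members divided along Dcn, which encodes decorin. Cells above the median Dcn level of these cells had 1437 CPM of Eln against 512 in those at or below it, a ratio of 2.81 (2.73 to 2.89), with medians of 939 and 135.4 CPM. Mfap5 was at 817 against 364.95 CPM (2.24, 2.16 to 2.32), and Mfap4 at 131.2 against 73.4 CPM (1.79, 1.65 to 1.94). Fbn2 went the other way, at 32.7 against 114.9 CPM (0.285, 0.254 to 0.318) with a count in 34.4% and 55.04% of cells. Fbln2 (1.59), Fbn1 (1.28) and Fbln5 (1.24) were above 1, and Emilin1 (0.908), Fbln1 (0.849) and Mfap2 (0.771) below it. The medians of Fbln5 (54.7 and 25.2 CPM) and Fbln1 (73.1 and 144.4 CPM) were farther apart than their sums. Those of Mfap4 were closer than its sums, at 10.1 and 7.88 CPM, with a count in 53.9% and 54.3% of cells. The median totals were 89908 and 103036 counts, and their part was not tested.

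Acta2, the smooth muscle actin gene that marks myofibroblasts, drew another line through the same cells. Above the median of Acta2, Fbn2 was at 97.8 against 52.1 CPM (ratio 1.88, 1.71 to 2.07), Mfap4 at 66.5 against 139.8 CPM (0.476, 0.439 to 0.516) and Fbln1 at 129.4 against 243.4 CPM (0.532, 0.501 to 0.564). The sums of Eln (ratio 1.25), Mfap5 (1.124) and Fbn1 (1.13) were closer, but the median cells of Eln (457.3 against 216.7 CPM) and Mfap5 (447.6 against 272.9 CPM) were not. Median totals were 103726 and 89945 counts, and their part was not tested. Eln and Mfap4 parted along Acta2 in sums and in medians. Along Dcn they were high together in sums, while the medians and detection of Mfap4 were close. The Mfap4 medians above and not above the median of Acta2 were 0 and 11.2 CPM, with a count in 48.4% and 59.7% of cells. For Fbn2 the difference lay in the sums. Its medians were 0 on both sides, with a count in 48.4% and 41.1% of cells. The correlation of Fbn2 with Acta2 in the other cells was 0.0615.

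Within the cells with Rgs5 above, the chemokine receptor gene Cxcr4 was counted in 75.9%. Those cells had 236.9 CPM of Eln against 664 in the 49 cells without it (ratio 0.357, 0.338 to 0.376), 97.5 against 347.7 CPM of Mfap5 (0.280, 0.259 to 0.303), 1129 against 1699 CPM of Fbn1 (0.665) and 23.9 against 54.2 CPM of Fbln2 (0.442). Mfap2 (1.51, 1.13 to 2.05) and Fbln1 (1.17, 1.08 to 1.28) were higher with Cxcr4, and Emilin1 (0.609), Fbn2 (0.540) and Mfap4 (0.601) lower. Without 1 cell that held 62.8% of the Mfap4 counts with Cxcr4 the Mfap4 ratio was 0.225. Among the cells without Cxcr4, 1 cell held 33.3% of the Fbn2 counts and 1 cell held 27.6% of the Fbln2 counts. Leaving out the cell in question gave ratios of 0.777 for Fbn2 and 0.584 for Fbln2. Both genes had medians of 0 with and without Cxcr4. Fbln5 summed to 38.2 and 38.7 CPM (0.986, 0.816 to 1.20), with medians of 7.83 and 14.6 CPM and counts in 51.9% and 61.2% of cells. The medians of Mfap5 were closer than its sums, at 32.9 and 40.7 CPM. The cells without Cxcr4 had more Pdgfra (635 against 347.3 CPM) and less Rgs5 (3647 against 4884 CPM), and median totals of 70731 against 79115 counts; what these contribute was not tested.

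**Figure D5:**
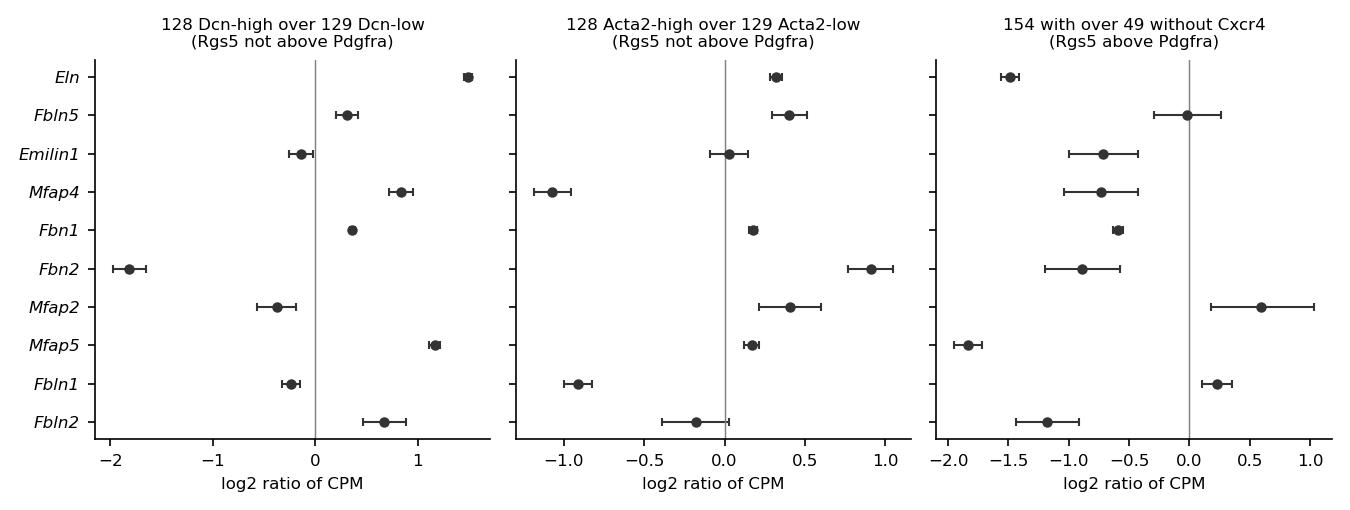
Log2 ratio of CPM of summed counts for each gene between cells above and not above the median of Dcn, likewise of Acta2 (both within the cells without Rgs5 above Pdgfra), and between cells with and the 49 cells without a Cxcr4 count (Rgs5 above). Points are ratios and bars 95% counting intervals. Eln and Mfap5 lie right of 0 and Fbn2 left of it in the first panel (ratios 2.81, 2.24 and 0.285). Fbn2 lies right of 0 in the second (1.88), where its medians were 0 on both sides.

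The wider elastic fibre pathway showed part of the same pattern. Of 51 further genes in 7 lists, drawn up with earlier results of these data known, 46 were detected in at least 10% of cells. Of these, 14 were at least 2-fold lower with Rgs5 above, 4 at least 2-fold higher and 28 in between. Their median log2 ratio was -0.37. Over all 13975 genes so detected, 5.26% were at least 2-fold lower and 3.98% at least 2-fold higher, with a median of 0.02. Of the 5 lysyl oxidases, which cross-link elastin and collagen, Lox (47.4 against 199.7 CPM, 4.21-fold) and Loxl1 (54.7 against 143.6 CPM, 2.62-fold) were lower. Loxl2, highest of the list per kb, was at 553 against 662 CPM. Of the 4 latent TGF-beta binding proteins, Ltbp1 was lower (128.4 against 478 CPM, 3.72-fold), Ltbp4 was higher (1015 against 476 CPM, a ratio of 2.13), and Ltbp2, highest per kb, was at 796 against 1309.9 CPM. Ltbp4 encodes a partner of fibulin-5 in elastic fibre assembly, and it differed in the opposite direction to Fbln5.

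Of the other fibulins and relatives of EMILIN-1 (6 of 9 detected in at least 10% of cells), Fbln7 (8.85 against 32.3 CPM), Hmcn1 (631 against 1333 CPM) and Emilin2 (22.8 against 58.8 CPM) were lower and Hmcn2 (10.2 against 2.57 CPM) higher, though without 1 cell that held 60.1% of its counts Hmcn2 was at 4.08 against 2.57 CPM, inside the 2-fold limit. Hmcn1 was also the highest of them per kb. Of 7 ADAMTS and ADAMTS-like genes for microfibril proteins, Thsd4 (420.6 against 853 CPM), Adamtsl2 (66.7 against 136.7 CPM) and Adamts6 (5.13 against 13.8 CPM) were lower, Adamts17 (10.1 against 3.16 CPM) was higher, and Adamts10, highest per kb, was at 372.3 against 504 CPM.

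Among 9 detected elastases and their inhibitors, the gelatinase genes Mmp2 (201.6 against 513 CPM) and Mmp9 (37.2 against 92.2 CPM) were lower. Ctss, a cathepsin gene typical of immune cells, was higher (46.9 against 8.50 CPM, and against 4.66 without 1 of the other cells), beside the immune markers given above, and Timp2, highest per kb, was at 846 against 1184 CPM. Mmp12 (20.4 against 1.79 CPM) and Mmrn1 (7.195 against 0.351 CPM) were counted in under 10% of cells and stand outside the 46; 1 cell held 87.5% of the Mmp12 and another 91.8% of the Mmrn1 counts with Rgs5 above, and without it neither reached 2-fold. Of 10 receptor genes for elastin and fibrillin, Itgb8, an integrin chain that acts on latent TGF-beta, was lower (32.1 against 80.5 CPM), and Itgb1, highest per kb, was at 769 against 703 CPM. Of 5 genes for microfibril-binding proteoglycans and fibronectin, Vcan (432.7 against 1505 CPM) and Dcn (229.7 against 1328 CPM) were lower and Bgn, highest per kb, was at 3615 against 5235 CPM.

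A set of 12 cells counted the genes Hand2, Hoxa10, Hoxa11 and Pgr together, 2 of them with Rgs5 above. In those cells Mfap5 was at 23.8 CPM against 417.3 in the rest, Eln at 92.1 against 715 and Mfap2 at 4.11 against 31.5. Fbln5 was at 322.2 against 77.04 CPM in sum, with medians of 18.4 and 14.9988 CPM, so the sum and the median of these cells were far apart. Without 1 cell each, Fbln5 was at 160.9 CPM, Eln at 56.3 and Mfap2 at 2.68 in the set. Without the 12 cells 6 members were at least 2-fold lower with Rgs5 above. The share of all genes was not computed without them.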

How the data were processed

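Single-cell RNA-seq libraries of 460 cells were measured; each deposited sample is 1 cell and all form 1 group. The authors deposited 1 table of whole-number molecular barcode counts, per the file headers. STAR, HTSeq and mm10 are named in the submitters' processing notes without versions; the step from reads to barcode counts is not given in the sources used here. Whether cells came from separate animals is not stated, so cells were not used as replicates. The genotype of the mice is not reported here.

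From the counts, CPM of summed counts were computed with exact Poisson intervals, shares of cells with exact Clopper-Pearson intervals, and ratios with exact binomial intervals (95%; counting error only, with PCR and free RNA not covered). The class with Rgs5 above Pdgfra held 203 cells and the other 257; splits inside them gave 128 and 129 cells for Dcn and for Acta2 and 154 and 49 for Cxcr4, and 127 and 333 cells lay in columns low in Sftpc or not. Called means 2-fold between the classes among genes detected in at least 10% of cells. For thinned values each cell was drawn down to 56586 counts, the 10th percentile of totals; 46 shallower cells were left out, leaving 414 (171 with Rgs5 above and 243 others). No cell was filtered and no doublet caller was run. Lengths and positions came from GENCODE vM21, whose identifiers matched all 10 genes. Where a symbol occurred more than once, the row highest in summed counts was used for it. The 119 further rows of such symbols were kept in the totals. Columns low in Sftpc are those where over 50% of the 20 nearest columns by cell number had under 30 CPM of it.

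The members and gene lists were chosen with earlier results of these data known. Named genes are the 10 members, in each pathway list the gene highest per kb and every gene past 2-fold with at least 5 CPM in a class, the 3 genes most like each member, and listed pairs at or beyond 0.3 in either direction; other values given for listed pairs and splits were chosen after they were seen. Alternatives changed the averaging, size factors (median of ratios), thinning, count limit, correlation, fold limit, margin between the classes and the cells used; transcript length, the 5 ordered sets, the top 10% of cells, the trimming of each gene's highest 5% of cells and the leaving out of single cells were added after seeing the data. The calculations used Python 3.11.15, numpy 2.4.6, pandas 2.3.3, scipy 1.17.1 and matplotlib 3.10.9, and were tested on simulated data.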

Additional observations from a re-analysis of the deposited data

How the results depend on the processing

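The count of members at least 2-fold lower with Rgs5 above Pdgfra was 6 under every alternative in normalization, averaging, depth, margin and cells, except within the columns low in Sftpc (4). There Mfap4 and Fbln5 each fell inside the limit through 1 cell; without the 1 cell that moved each gene's ratio most, an alternative chosen after seeing the data, the count was 7 in those columns, Mfap2 included, and 6 over all cells. It was 8 at a limit of 1.5-fold and 4 at 3-fold. The share of all genes was not computed at these limits or within the columns low in Sftpc. With medians of single cells the 6 included Mfap2 and not Fbn2: 5 had a ratio, and Mfap4 was counted as lower because its medians were 0 and 8.73 CPM. Fbn2 and Fbln2 had medians of 0 in both classes and gave no ratio. No member was 2-fold higher under any alternative run. Requiring at least 3 counts left 1 member detected in at least 90% of cells. The share of all genes was not computed at that count limit. The median correlation of the 45 pairs, 0.129 as reported, was 0.124 by Pearson, 0.124 in thinned cells, 0.0926 and 0.0694 within the classes, 0.130 without the deepest 5% of cells, 0.110 without and 0.150 within the columns low in Sftpc, and 0.133 without the cells counting Hand2, Hoxa10, Hoxa11 and Pgr. The median over all gene pairs was not computed under these alternatives. Without the detection filter, 18.98% of 29049 genes were at least 2-fold lower and 16.7% at least 2-fold higher. The depth of single cells limits Fbn2, Fbln2 and Mfap4 most, whose median cell had no count.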
